A study of Mus musculus with 12 samples.

Results

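Ionotropic and metabotropic receptors for glutamate and GABA, the main excitatory and inhibitory transmitters of the brain, were followed as a gene family in mouse neural progenitor cells that had lost lamin B1. The members were all genes whose symbols follow the naming of AMPA (Gria), delta (Grid), kainate (Grik), NMDA (Grin), metabotropic glutamate (Grm), GABA-A (Gabra to Gabrr) and GABA-B (Gabbr) receptor subunits. The rule found 47 members among 43309 features of the day 5 table and the same 47 among 42802 features of the day 9 table: 4 AMPA, 2 delta, 5 kainate, 7 NMDA, 8 metabotropic glutamate, 16 GABA-A, 3 GABA-A rho and 2 GABA-B genes. Members were matched by name and by no measured value, though the rule was set with earlier results of these data known.

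Neural progenitor cells are dividing precursors of neurons and glia. All were C57BL/6 cells with Ai3, a reporter that makes EYFP after Cre recombination, grown with 10 ng/ml each of EGF and FGF-2, and all received the lentivirus pSox2-Cre. Cells labelled LaminB1+/+ are called WT and cells labelled LaminB1fl/fl, in which Cre deletes Lmnb1, are called cKO; EYFP+ cells were sorted by flow cytometry 5 or 9 days after the virus, and polyA RNA was sequenced from 3 libraries in each of the 4 groups. Sox2 is a progenitor gene, so the promoter of the virus and the EYFP sort both limit what was sampled, and the sources do not say whether replicates were separate cultures or animals. The p-values therefore speak only to the spread between these libraries, part of which may be technical.

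Ionotropic glutamate receptors are channels built from 4 subunits. AMPA receptors carry fast excitation, kainate receptors modulate it, and NMDA receptors pair an obligatory GluN1 subunit with GluN2 or GluN3 subunits. Delta receptors work chiefly as synaptic adhesion proteins. Metabotropic glutamate receptors and GABA-B receptors signal through G proteins, while GABA-A receptors are chloride channels of alpha, beta and gamma or delta subunits. In progenitor cells and young neurons these receptors are known as sensors of ambient transmitter, and astrocytes and oligodendrocyte precursors also make several of them.

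The targeted gene matched the labels at both days. Lmnb1 was at 288, 255 and 247 CPM (counts scaled to library size after TMM, the unit of all levels unless another is given) in WT against 37.8, 40.7 and 45.04 CPM in cKO at day 5, and at 156, 210 and 188 CPM against 34.3, 32.8 and 39.4 CPM at day 9. The day 9 fall was -2.38 ± 0.14 (log2 fold change, cKO minus WT, ± standard error; edgeR's quasi-likelihood test, adjusted p = 1.85e-05). Library totals were 26720476 to 32127629 counts at day 5. At day 9 they were 24412935 to 24662809 in WT and 13315273, 22988447 and 13709733 in cKO, where 69.8%, 0.35% and 68.4% of the counts fell on 15 features grouped as structural RNA, against 15.8% to 34.6% in WT. cKO replicates 1 and 3 of day 9 thus had few counts left for other genes, and a fit without this pair leaves replicate 2 alone in its group, assumed to vary like the WT libraries. Progenitor markers were present in all libraries (summed level 5249 to 6465 CPM at day 5, 3615 to 4157 CPM in WT and 1973 to 2127 CPM in cKO at day 9). Microglia markers summed to at most 2.44 CPM, with Aif1 at 0 in every library. Each day has a table of its own, and an effect of the table cannot be told apart from one of the day, so no level is compared across days.

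At day 9, 12 of the 28 subunit genes that could be tested rose in cKO and 3 fell, while 13 did not pass the threshold (edgeR, adjusted p under 0.05). Over all 14617 genes tested, 21.0% were called higher and 22.6% lower, 43.6% in all. This balance depends on the scaling. On unscaled TPM, where the median of all genes itself moved by -1.02 (log2(TPM + 0.1)), 0 members were called higher and 1 lower, beside 62 and 561 of all genes (limma); without structural RNA these were 0 and 4, beside 180 and 1274. After TMM scaling of TPM they were 13 and 3, beside 2811 and 3051 of all genes. The median log2 fold change of the tested members in edgeR was 0.97 against 0.013 over all genes. The genes that rose included Gria1 and Gria2 of the AMPA class, Grid1 of the delta class, Grik2 and Grik3 of the kainate class, the GABA-A genes Gabra2, Gabra4 and Gabrb1, and both GABA-B genes; of these, Grid1 and Gabbr1 had the other sign on unscaled TPM (-0.49 and -0.13 on log2(TPM + 0.1)). Those that fell were Grik1, Grin2c and Grm3. At day 5, 0 of 32 tested members were called, beside 0.00673% of all genes tested, which is Lmnb1 alone (edgeR, adjusted p = 0.0493, and not passed when any 1 library was left out). DESeq2 and limma-voom also called 0 members at day 5. In a count that needs no model, 17 members lay higher in all cKO than in all WT libraries at day 9 and 3 lay lower, beside 27.6% and 30.2% of all genes tested; at day 5 the count was 0 of 32 in either direction, beside 1.50% and 1.35%.

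**Figure D1:**
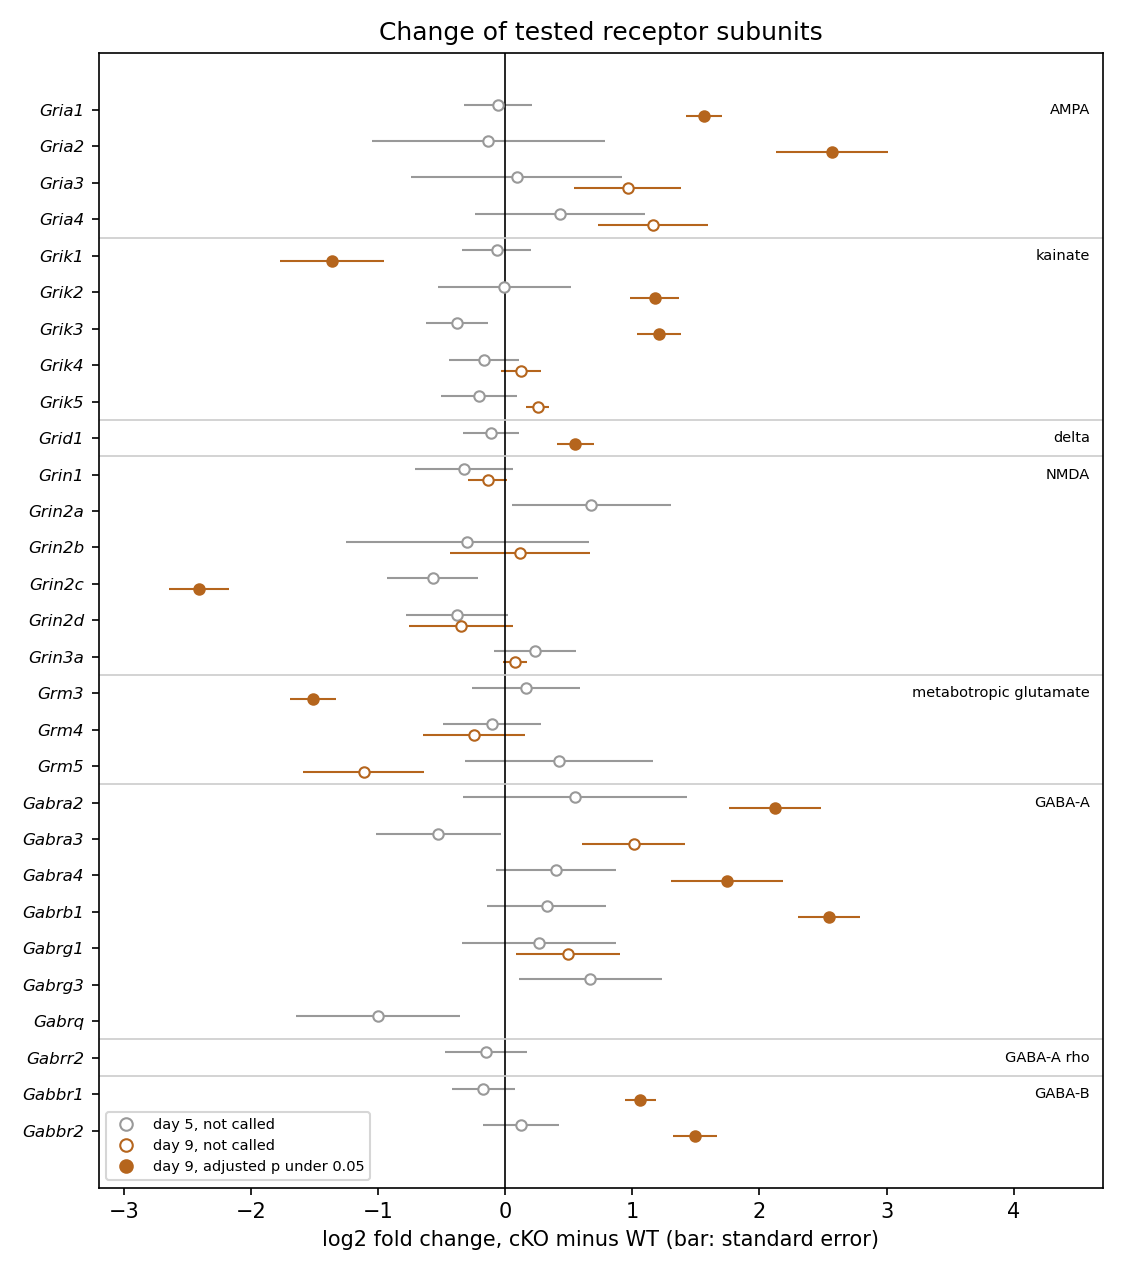
Log2 fold change (cKO minus WT, horizontal axis, with its standard error) of tested subunit genes at day 5 (grey) and day 9 (brown), grouped by receptor class; filled points passed an adjusted p of 0.05. At day 9, 10 of the genes drawn are filled to the right of 0 and Grik1, Grin2c and Grm3 to the left, while no day 5 point is filled.

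Other cell type markers moved with genotype at day 9 beside these genes. The summed level of 12 neuron markers was 328, 229 and 165 CPM in WT against 620.3, 564 and 565 CPM in cKO, and 5 of 11 tested rose with 0 falling. Astrocyte markers summed to 1511 to 1662 CPM in WT and 2581 to 3045 CPM in cKO (8 of 10 rose), and oligodendrocyte markers to 224 to 306 CPM in WT and 1370 to 1970 CPM in cKO (8 of 8 tested rose). Oligodendrocyte precursor markers summed to 2498 to 2832 CPM in WT and 3336 to 3672 CPM in cKO, with 2 of 6 up and 3 down. Gpr17 and Sox10 rose, Gpr17 with 347, 249 and 472 CPM in WT against 2086, 2209 and 1769 CPM in cKO. Olig1, Cspg4 and Pdgfra fell, Olig1 with 1540, 1445 and 1624 CPM in WT against 603, 679.5 and 608 CPM in cKO. Of 12 progenitor markers 9 fell and 2, Pax6 and Prom1, rose. Inhibitory neuron markers summed to 8.79 to 9.86 CPM in WT and 14.4 to 18.4 CPM in cKO, with Dlx5 and Sst at 0 in all day 9 libraries. Of 4 tested, 2 rose and 0 fell. Most of the sum was Gad1, at 7.63, 9.04 and 8.43 CPM in WT against 14.03, 11.9 and 13.1 CPM in cKO. Excitatory neuron markers summed to 2.04 to 2.40 CPM in WT and 2.87 to 4.68 CPM in cKO, with 0 of 2 tested passing and Slc17a6 at 0 in all. The part of these marker shifts in the receptor results was not tested, and in bulk RNA more cells of a type and more RNA per cell cannot be told apart.

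The proximal promoters of 3 genes that rose (Gria2, Gabra2, Gabbr1) and of 2 that fell (Grin2c, Grm3) are shown because the family moved in both directions. They are the 250 bases before the RefSeq start site (build GRCm38.p6, the assembly of mm10), read 5′ to 3′ on the gene's strand and free of annotated exons. Capitals mark GC boxes (GGGCGG) and E-boxes (CANNTG), searched on both strands, and neighbouring motifs can share an end letter, as 2 of the GC boxes of Grin2c do.
Gria2: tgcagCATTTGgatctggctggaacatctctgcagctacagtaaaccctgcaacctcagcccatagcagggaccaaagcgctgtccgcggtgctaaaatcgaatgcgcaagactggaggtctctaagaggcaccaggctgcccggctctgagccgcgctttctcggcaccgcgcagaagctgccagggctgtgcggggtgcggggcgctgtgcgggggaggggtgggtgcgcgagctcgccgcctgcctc
Gabra2: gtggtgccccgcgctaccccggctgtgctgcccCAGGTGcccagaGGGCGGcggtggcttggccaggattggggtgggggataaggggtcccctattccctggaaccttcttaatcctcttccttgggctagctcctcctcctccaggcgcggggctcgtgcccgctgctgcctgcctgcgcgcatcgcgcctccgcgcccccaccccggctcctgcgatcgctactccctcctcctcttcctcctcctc
Gabbr1: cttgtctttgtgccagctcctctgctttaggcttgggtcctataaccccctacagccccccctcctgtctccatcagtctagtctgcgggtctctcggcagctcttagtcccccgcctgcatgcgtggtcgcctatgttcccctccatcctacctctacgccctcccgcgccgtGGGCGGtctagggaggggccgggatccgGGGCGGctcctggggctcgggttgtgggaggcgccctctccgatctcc
Grin2c: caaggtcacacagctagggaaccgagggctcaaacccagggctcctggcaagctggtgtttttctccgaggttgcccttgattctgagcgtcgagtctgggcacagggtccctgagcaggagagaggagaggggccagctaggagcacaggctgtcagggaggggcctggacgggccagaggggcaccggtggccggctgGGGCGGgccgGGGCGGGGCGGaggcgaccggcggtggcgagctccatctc
Grm3: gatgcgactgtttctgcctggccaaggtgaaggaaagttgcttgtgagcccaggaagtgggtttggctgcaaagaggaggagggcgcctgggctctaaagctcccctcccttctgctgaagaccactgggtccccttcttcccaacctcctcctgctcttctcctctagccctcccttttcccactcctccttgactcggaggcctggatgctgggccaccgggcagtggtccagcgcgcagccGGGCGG

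These windows lie at chr3:80802836-80803085, minus strand (Gria2), chr5:71095850-71096099, minus strand (Gabra2), chr17:37045716-37045965, plus strand (Gabbr1), chr11:115267244-115267493, minus strand (Grin2c) and chr5:9725353-9725602, minus strand (Grm3). The GC content was 64.8% for Gria2, 70.0% for Gabra2, 66.0% for Gabbr1, 68.8% for Grin2c and 62.4% for Grm3. All 5 lay above the median of 52.4% over 32536 promoter windows of the same length. GC boxes numbered 0 in Gria2, 1 in Gabra2, 2 in Gabbr1, 3 in Grin2c and 1 in Grm3, and E-boxes 1, 1, 0, 0 and 0. Genes that rose and genes that fell thus both held GC boxes. The window of Grik3, which also rose, was free of exons too but is not shown. It had 82.0% GC, 6 GC boxes and 1 E-box. In the RefSeq table, 32 of the 47 members matched, with 39 distinct windows and a median GC of 58.8%. A GC box stood in 18 of the 39, beside 33.0% of all promoters, and an E-box in 18, beside 66.2%. The TATA box (TATAAA) stood in 4 of 39 beside 12.3% of all, the cAMP response element core (TGACGT) in 0 beside 6.5%, the ETS core (CCGGAA) in 2 beside 12.1%, the SOX motif (ACAAAG) in 3 beside 16.5% and the NFI motif (TTGGCA) in 3 beside 12.3%. A match here is only a match of letters. The RefSeq start of Grm3 lies upstream of the annotated gene span given for it here.

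AMPA receptor genes were higher in cKO at day 9 in all 4 members by group mean of CPM (Gria3 was at -0.015 on log2(TPM + 0.1)), and Gria1 and Gria2 passed the test. Gria2 (chr3:80681450-80802835, mm10) encodes GluA2, the subunit that makes AMPA receptors impermeable to calcium once its RNA is edited. It was at 30.9, 22.7 and 21.4 CPM in WT against 188, 69.3 and 191 CPM in cKO. The groups did not overlap, but cKO replicate 2 lay far below the other cKO libraries. The log2 fold change was 2.57 ± 0.44 (edgeR, adjusted p = 0.00735), and 1.44 without cKO replicates 1 and 3, the libraries rich in structural RNA (adjusted p = 0.00564). Gria1 (chr11:57011387-57330244) encodes GluA1, the subunit best known for activity-dependent insertion at synapses. It was at 6.67, 7.996 and 6.11 CPM in WT against 19.5, 21.1 and 20.7 CPM in cKO, with every cKO library above every WT library and little spread within groups (1.56 ± 0.14, adjusted p = 0.000138).

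Gria3 and Gria4, which encode GluA3 and GluA4, did not pass. Gria3 was at 7.85, 4.37 and 2.36 CPM in WT against 10.6, 8.25 and 9.85 CPM in cKO and Gria4 at 9.97, 4.697 and 3.11 CPM in WT against 11.4, 15.3 and 12.95 CPM in cKO. Neither gene's groups overlapped, and WT replicate 1 was the highest of the WT libraries in both. Gria3 gave 0.96 ± 0.42 (edgeR, adjusted p = 0.103) and Gria4 1.16 ± 0.43 (adjusted p = 0.0697). Without WT replicate 1 the values were 1.49 (adjusted p = 0.0104) and 1.75 (adjusted p = 0.00258), and Gria4 also passed under DESeq2 (1.11, adjusted p = 0.0175), limma-voom (1.39, adjusted p = 0.0426) and on TMM-scaled TPM (1.29, adjusted p = 0.0273). Without WT replicate 3, Gria3 was at 0.615 (adjusted p = 0.116).

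Grid1 (chr14:34820108-35583379), which encodes the delta receptor subunit GluD1, rose on the count scale, though it was at -0.49 on log2(TPM + 0.1). It was at 28.7, 27.4 and 38.01 CPM in WT against 48.6, 46.1 and 43.1 CPM in cKO. The groups were separate, with a modest distance (0.55 ± 0.15; edgeR, adjusted p = 0.0179). The call was lost without WT replicate 1 (adjusted p = 0.0707), WT replicate 2 (0.0699), cKO replicate 1 (0.0655) or cKO replicates 1 and 3 (0.52, adjusted p = 0.103).

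Kainate receptor genes changed in both directions. Grik3 (chr4:125490700-125714173) encodes GluK3, a low-affinity subunit, and stood at 52.9, 49.98 and 78.1 CPM in WT against 147, 133 and 138 CPM in cKO. All cKO libraries lay well above all WT libraries (1.21 ± 0.17; edgeR, adjusted p = 0.00134). Grik2 (chr10:49094833-49788766), which encodes the widely expressed GluK2, was at 11.8, 12.1 and 9.04 CPM in WT against 27.1, 18.96 and 28.8 CPM in cKO, again without overlap (1.18 ± 0.19, adjusted p = 0.00251); without cKO replicates 1 and 3 it was 0.76 (adjusted p = 0.0503) and no longer passed. Grik1 (chr16:87895900-88290265), the GluK1 gene, went the other way at low level, 2.15, 2.44 and 2.705 CPM in WT against 0.312, 1.18 and 1.13 CPM in cKO (-1.37 ± 0.41, adjusted p = 0.0283).

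The Grik1 value of 0.312 CPM in cKO replicate 1 is below the 0.468 CPM that 3 counts give in that library. Its call was lost without WT replicate 1 (edgeR, adjusted p = 0.0576), 2 (0.0882) or 3 (0.0792), without cKO replicate 3 (0.0532), and without cKO replicates 1 and 3 (-1.07, adjusted p = 0.0648). The high-affinity partners GluK4 and GluK5 did not pass. Grik5 (chr7:25009849-25072346) was at 101, 90 and 97.98 CPM in WT against 115, 112 and 118 CPM in cKO, with separate groups but a small difference (0.25 ± 0.0921, adjusted p = 0.0542), which passed under upper-quartile scaling (adjusted p = 0.0482), RLE scaling (0.0396) and in counts without structural RNA (0.0483). Grik4 was at 11.2, 10.1 and 13.5 CPM in WT against 13.6, 11.5 and 13.1 CPM in cKO, with overlapping groups (0.12 ± 0.16, adjusted p = 0.534).

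Of the NMDA receptor genes, 1 of 5 tested changed, downward. Grin2c (chr11:115249169-115267243) encodes GluN2C, a subunit known from cerebellar granule cells, astrocytes and glial precursors. It was at 13.6, 11.9 and 9.16 CPM in WT against 1.87, 1.96 and 2.81 CPM in cKO. The lowest WT library was above the highest cKO library by a wide margin, and the log2 fold change of -2.41 ± 0.24 (edgeR, adjusted p = 0.000187) was the largest fall among the 28 tested members. Grin3a (chr4:49661611-49845744), the gene of the glycine-binding GluN3A, known from immature neurons, was the most abundant NMDA gene by TPM in every day 9 library and stood at 77.3, 84.1 and 85.6 CPM in WT against 91.04, 80.5 and 88.6 CPM in cKO with overlapping groups (0.074 ± 0.0958, adjusted p = 0.549). Its sign turned on log2(TPM + 0.1) (-0.98), without the low-count filter (-0.04) and without cKO replicates 1 and 3 (-0.063).

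Grin1, which encodes the obligatory GluN1 subunit, was at 11.6, 11.6 and 11.4 CPM in WT against 12.6, 9.56 and 9.43 CPM in cKO, also with overlapping groups (-0.14 ± 0.15; edgeR, adjusted p = 0.477). Grin2b and Grin2d, the GluN2 genes of embryonic brain, were near 1 CPM, from 0.524 to 2.03 CPM for Grin2b and from 0.503 to 1.04 CPM for Grin2d, and neither passed. Grin2a, the adult GluN2A gene, could be tested at day 5 only. Exons of Grin1, Grin2b, Grin2c and Grin2d each overlap an annotated transcript on the opposite strand, so part of their reads could belong to the other strand.

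Of the metabotropic glutamate receptor genes, Grm3 fell. Grm3 (chr5:9485541-9725170) encodes mGluR3, a Gi-coupled receptor that is well known in astrocytes. It was at 21.8, 21.7 and 23.3 CPM in WT against 7.33, 6.31 and 10.1 CPM in cKO. The WT libraries lay close together and all cKO libraries were far below (-1.51 ± 0.18; edgeR, adjusted p = 0.00051). In the same libraries 8 of 10 astrocyte markers rose and 9 of 12 progenitor markers fell; their part in the Grm3 result was not tested.

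Grm5 (chr7:87584168-88134907), the gene of a Gq-coupled receptor known in progenitors and young astrocytes, was at 47.3, 24.6 and 14.1 CPM in WT against 17.3, 9.98 and 12.95 CPM in cKO. WT replicate 1 was the highest library, the groups overlapped, and the difference did not pass (-1.12 ± 0.48; edgeR, adjusted p = 0.107). Without WT replicate 1 it was -0.565 (adjusted p = 0.19). It passed without WT replicate 3 (-1.46, adjusted p = 0.0237), under DESeq2 (-1.17, adjusted p = 0.00869) and on TPM without structural RNA (-1.95, adjusted p = 0.0344). Grm4, a Gi-coupled receptor gene, ranged from 0.563 to 1.07 CPM and did not pass. Grm2, Grm6, Grm7 and Grm8 were too low to test at both days.

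GABA-A receptor genes rose in 3 of 6 tested cases, and the 3 lie in 1 gene cluster on chromosome 5. Gabrg1, Gabra2, Gabra4 and Gabrb1 stand in this order within chr5:70751047-72149037 (mm10). Gabrb1, which encodes the beta1 subunit, was at 1.02, 1.26 and 0.843 CPM in WT against 6.55, 5.48 and 6.33 CPM in cKO (2.55 ± 0.24; edgeR, adjusted p = 0.000168). Gabra2, which encodes an alpha subunit of receptors common in embryonic brain, was at 1.61, 1.33 and 0.727 CPM in WT against 7.33, 4.4 and 4.503 CPM in cKO (2.12 ± 0.36, adjusted p = 0.00286). In both genes every cKO library exceeded every WT library. Gabra4, the gene of an alpha subunit often found outside synapses, was at 2.74, 1.68 and 0.843 CPM in WT against 5.77, 7.54 and 4.08 CPM in cKO (1.74 ± 0.44, adjusted p = 0.0168).

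The Gabra4 groups did not overlap, but the call was lost without WT replicate 2 (edgeR, adjusted p = 0.0747), cKO replicate 1 (0.0553) or cKO replicates 1 and 3 (2.06, adjusted p = 0.0764). First exons of Gabra4 and Gabrb1 overlap on opposite strands, so those reads cannot be told apart without strand. The fourth gene of the cluster, Gabrg1, which encodes the gamma1 subunit, was at 12.9, 7.21 and 4.89 CPM in WT against 11.7, 15.2 and 7.88 CPM in cKO, with overlapping groups (0.49 ± 0.41, adjusted p = 0.356). Its value was 0.945 without WT replicate 1, 0.208 without WT replicate 3 and 0.206 without cKO replicate 2, and it did not pass in any of these. Gabra3, on the X chromosome, lay between 0.48 and 1.38 CPM and did not pass (1.01 ± 0.40, adjusted p = 0.0719).

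Both GABA-B receptor genes rose on the count scale. GABA-B receptors work as pairs of the ligand-binding subunit encoded by Gabbr1 and the G protein-coupling subunit encoded by Gabbr2. Gabbr1 (chr17:37045966-37075067) was at 86.2, 68.4 and 89.2 CPM in WT against 171, 165 and 172 CPM in cKO, and Gabbr2 (chr4:46662305-46991873) at 19.3, 19.4 and 29.05 CPM in WT against 67.5, 62.7 and 60.4 CPM in cKO. The cKO libraries lay close together and far above WT in both genes. Gabbr1 gave 1.06 ± 0.12 (edgeR, adjusted p = 0.000406) and Gabbr2 1.49 ± 0.17 (adjusted p = 0.000442). On unscaled TPM, where the median of all genes moved by -1.02 (log2(TPM + 0.1)), the difference of Gabbr1 was -0.13.

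**Figure D2:**
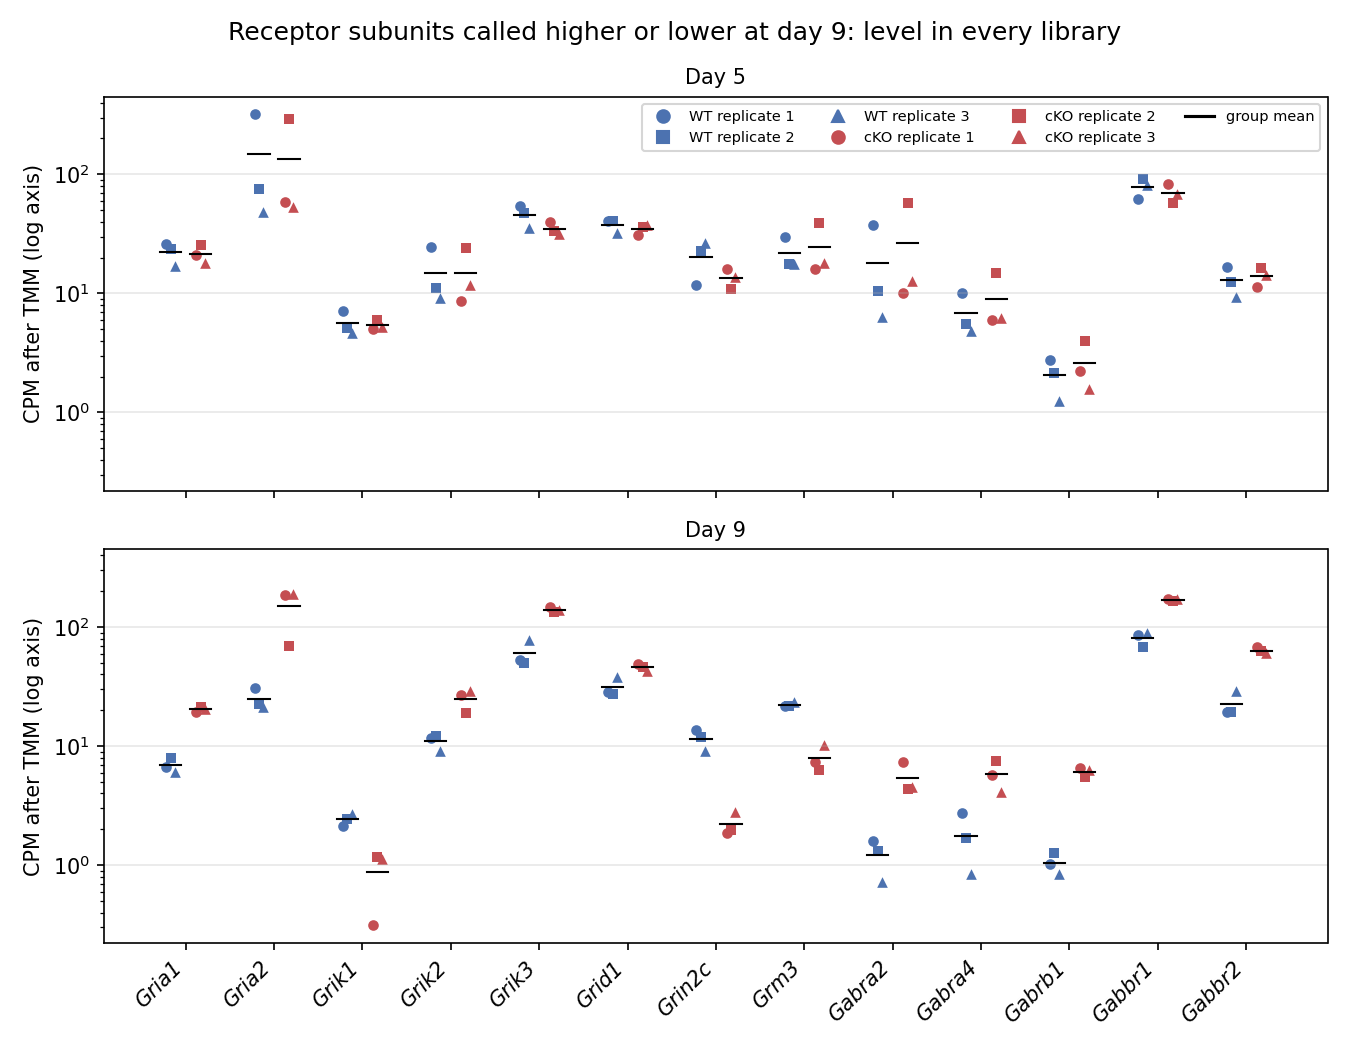
Level of 13 subunit genes called at day 9 in every library (CPM after TMM, log axis) at day 5 (top) and day 9 (bottom); colour marks the group, symbol the replicate and the black line the group mean. At day 9 the groups are apart in all 13 genes, as in Gabrb1 (0.843 to 1.26 CPM in WT and 5.48 to 6.55 CPM in cKO), whereas at day 5 they overlap in all 13, with WT replicate 1 and cKO replicate 2 highest in genes such as Gria2.

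Too low to test at either day were 15 genes of the family, and at day 9 another 4. Among the 15 were Gabra5, Gabra6, Gabrb2, Gabrd, Gabre, Gabrp, Gabrr1, Gabrr3, Grin3b, Grm2, Grm6, Grm7 and Grm8. The 4 tested at day 5 only were Gabrg3, Gabrq, Gabrr2 and Grin2a. No untested gene exceeded 23 counts in a library at day 5 or 17 at day 9 (at most 0.709 and 0.935 CPM). Gabra6, Gabrp and Gabrr3 had 0 counts in all 12 libraries; 3 counts, the limit that a count of 0 allows, correspond to 0.0754 to 0.124 CPM in 10 libraries and to 0.468 and 0.422 CPM in cKO replicates 1 and 3 of day 9. Of the X cluster (chrX:72255999-72842602) only Gabra3 was tested at day 9.

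Within a class, the share of each subunit in the summed TPM does not depend on the library total, and TPM allows genes of different length to be set beside each other. These shares have no test and are given as description. In the kainate class at day 9, the share of Grik3 was 15.02, 15.4 and 20.98% in WT against 28.4, 28.4 and 26.5% in cKO, and Grik5 67.4, 65.4 and 61.9% in WT against 52.1, 55.9 and 53.2% in cKO. The groups did not overlap in either, with Grik3 a larger and Grik5 a smaller part in cKO. In the NMDA class Grin3a held 58.7, 61.7 and 68.99% in WT against 74.7, 77.7 and 76.4% in cKO, while Grin2c held 16.9, 14.3 and 12.1% in WT against 2.36, 3.15 and 3.67% in cKO. Here Grin3a was the leading gene in every day 9 library and Grin2c the one whose share was small in cKO.

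In the AMPA class Gria2 led with 64.2, 63.8 and 72.7% in WT against 82.7, 64.8 and 82.5% in cKO, with cKO replicate 2 inside the WT range. In the GABA-A class Gabrg1 held 42.03, 34.2 and 36.3% in WT against 18.1, 28.5 and 18.02% in cKO and Gabrb1 5.105, 9.24 and 9.81% in WT against 15.7, 15.96 and 22.5% in cKO, the first lower and the second higher in every cKO library. The Gabbr2 share was 10.5, 12.98 and 14.6% in WT against 18.7, 17.1 and 17.3% in cKO. Summed TPM after TMM scaling gives the level of each class per length. At day 9 it was 19.2, 14 and 12.4 in WT against 70, 34.7 and 70.1 in cKO for AMPA genes, and 45.1, 36.6 and 48.7 against 88.5, 91.2 and 85.8 for GABA-B genes. Kainate genes summed to 55.3, 50.7 and 58.2 in WT against 80.9, 74.5 and 81.8 in cKO, and GABA-A genes to 9.12, 6.23 and 3.96 against 19.04, 15.93 and 12.91. These 4 classes lay higher in all cKO libraries after this scaling, which was chosen after seeing the data. Class sums were not computed on unscaled TPM, where the median of all genes moved by -1.02 (log2(TPM + 0.1)). Of genes with a large share in these classes, Gria2 was there at 0.999, Grik5 at -0.82, Gabbr1 at -0.13 and Gabrg1 at -0.49. The metabotropic class, at 22.5, 16.6 and 14.2 in WT against 8.77, 5.91 and 8.41 in cKO, lay lower, and the NMDA class, at 23.7 to 26.5 and 20.3 to 23.8, overlapped.

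**Figure D3:**
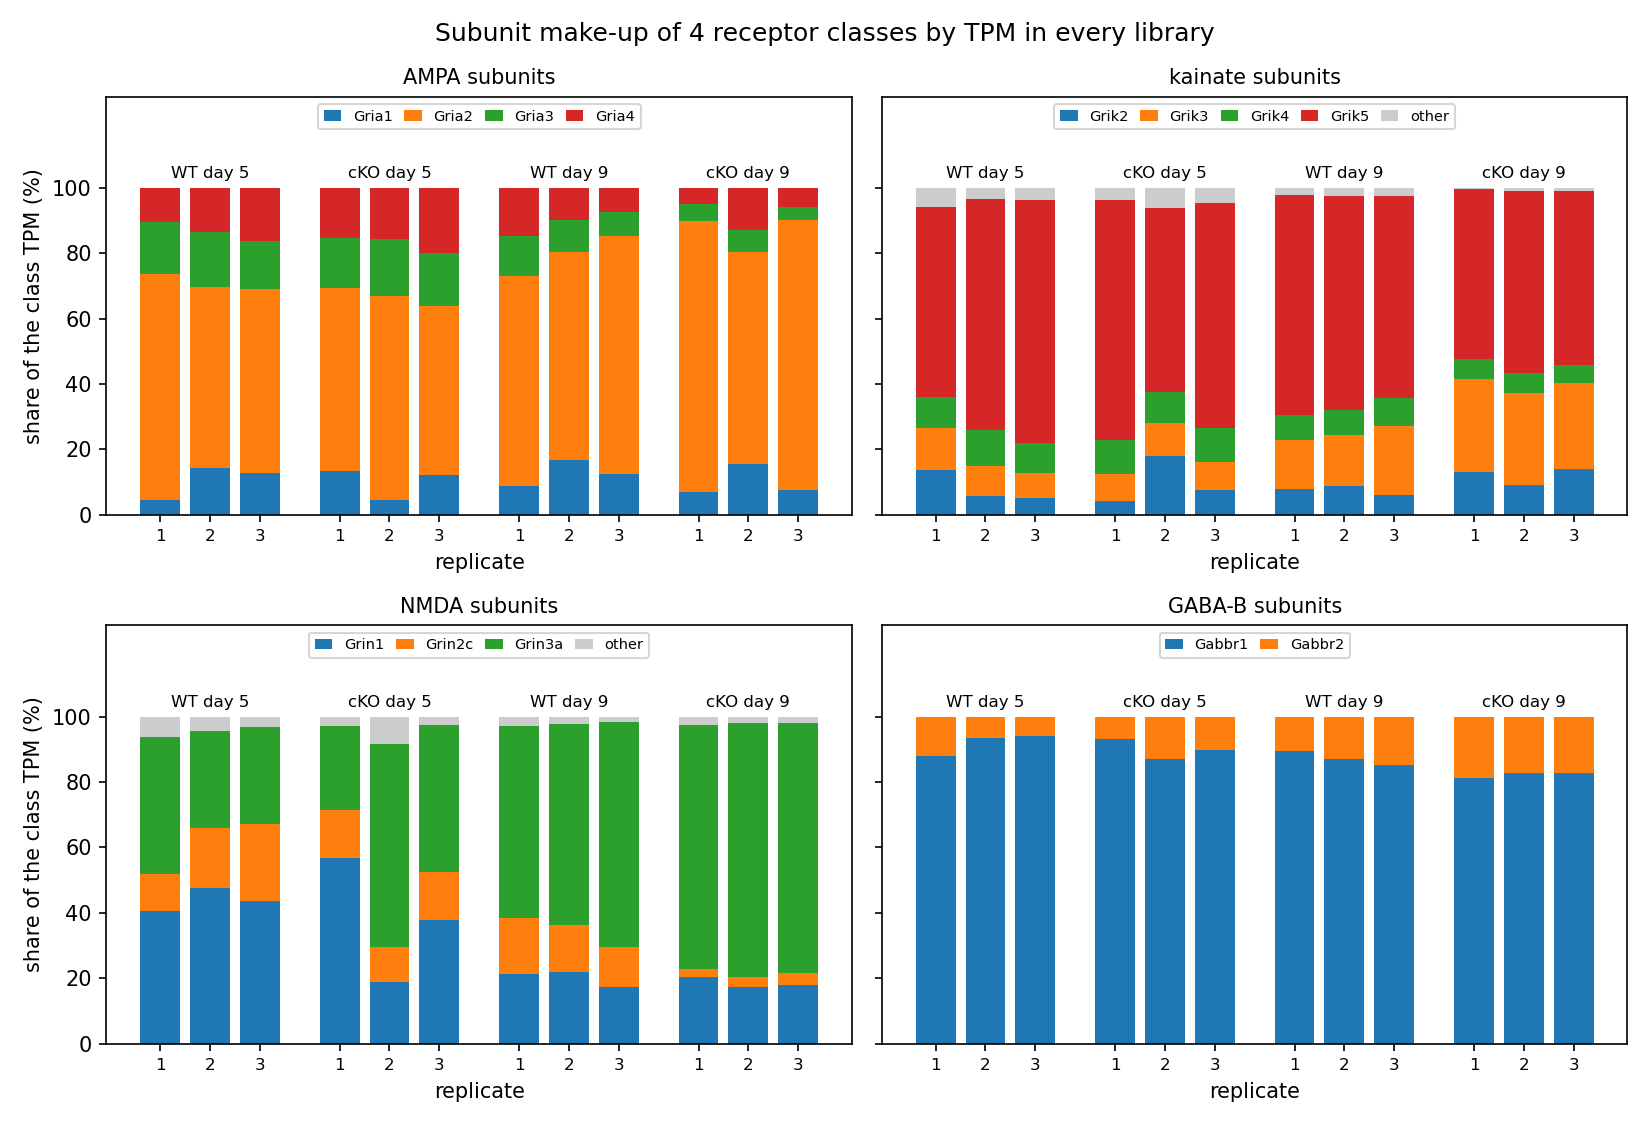
Share of each subunit gene in the summed TPM of its class (vertical axis, percent) in every library of the 4 groups, for the AMPA, kainate, NMDA and GABA-B classes; grey collects genes whose mean share stayed under 5% in every group. At day 9 Grik3 takes a larger and Grin2c a smaller part in all cKO libraries, and at day 5 WT replicate 1 and cKO replicate 2 differ from their groups.

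At day 5 no member was called, and 2 libraries from opposite groups stood apart together. WT replicate 1 and cKO replicate 2 were both above the other 4 libraries in 19 of 32 tested members, beside 33.54% of all genes tested, and both below them in 5, beside 36.57%. Gria2 was at 319, 74.8 and 48.2 CPM in WT against 58.2, 291 and 53.1 CPM in cKO, Gria3 at 78.9, 23.2 and 14.5 CPM in WT against 18.2, 86.01 and 19.8 CPM in cKO and Gria4 at 57.8, 21.8 and 18.3 CPM in WT against 20.4, 85.1 and 26.5 CPM in cKO. The same pair was highest for Grm5 (174, 68.2 and 58.2 CPM in WT against 58.05, 286 and 59.8 CPM in cKO). It was also highest for Gabra2 (37.6, 10.4 and 6.33 CPM in WT against 10, 56.9 and 12.6 CPM in cKO) and for Gabrg1 (37.8, 12.1 and 13.7 CPM in WT against 13.6, 44.4 and 18.4 CPM in cKO). Neuron markers summed to 1188, 542 and 491 CPM in WT against 551, 1236 and 624 CPM in cKO, again highest in this pair. Map2 alone was at 737, 282.5 and 250 CPM in WT against 247, 882 and 287 CPM in cKO. Tubb3, another of these markers, was lowest in the pair (21.2, 36.9 and 31.25 CPM against 43.8, 16.2 and 24.4 CPM). Oligodendrocyte precursor markers summed to 4009, 3742 and 3398 CPM in WT against 3115, 4109 and 3190 CPM in cKO, also highest in the pair. Ptprz1 was the main part of this pattern (1902, 968 and 763 CPM in WT against 671, 2418 and 800 CPM in cKO). Pdgfra was highest in the pair too. Olig1 was lowest in it (1637, 2357 and 2228 CPM against 2116, 1442 and 2166 CPM), and Cspg4, Sox10 and Gpr17 were neither. The part of these differences in the receptor levels was not tested. The structural RNA share was 14.3% in cKO replicate 2 and at most 0.506% in the other day 5 libraries. Without both libraries 0 members were called as well.

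**Figure D4:**
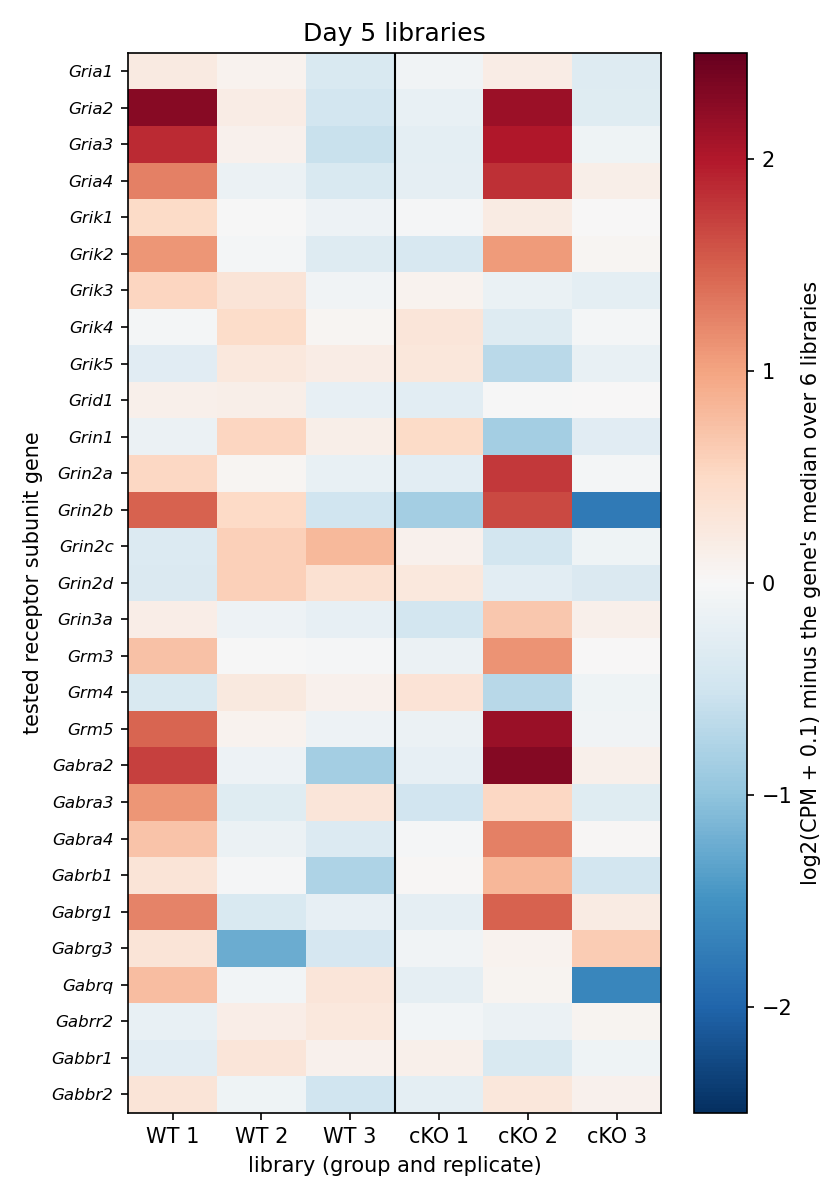
Day 5 level of 29 tested subunit genes in each library, as log2(CPM + 0.1) minus the gene's median over the 6 libraries (red higher, blue lower). WT replicate 1 and cKO replicate 2 are both above the other 4 libraries in 17 of the genes drawn, among them Gria2 (319 and 291 CPM against 48.2 to 74.8 CPM in the other 4), so the columns do not sort by genotype.

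Of the genes whose change differed between days, Gria1 was at 25.96, 23.7 and 17 CPM in WT against 21, 25.3 and 17.8 CPM in cKO and Gabbr1 at 62.1, 92.05 and 80.98 CPM in WT against 82.2, 57.1 and 68.98 CPM in cKO. Gabbr2 was at 16.8, 12.4 and 9.36 CPM in WT against 11.2, 16.4 and 14.4 CPM in cKO and Gabrb1 at 2.78, 2.16 and 1.24 CPM in WT against 2.23, 3.97 and 1.56 CPM in cKO. Gria1, Gabbr2 and Gabrb1 were also highest in this pair of libraries and Gabbr1 lowest in it, and the groups overlapped in all 4. The smallest p-values at day 5 belonged to Grin2c (11.8, 22.5 and 26.4 CPM in WT against 16.1, 10.8 and 13.8 CPM in cKO; -0.57 ± 0.36, unadjusted p = 0.151), Gabrq (0.0694 to 0.802 CPM; -1.004 ± 0.64, unadjusted p = 0.164) and Grik3 (54.1, 47 and 35.4 CPM in WT against 39.7, 33.4 and 31.7 CPM in cKO; -0.38 ± 0.25, unadjusted p = 0.166), each with an adjusted p of 1.0 in edgeR. Single libraries moved all 3, to -0.315 for Grin2c without WT replicate 3, -0.547 for Gabrq without cKO replicate 3 and -0.239 for Grik3 without WT replicate 1. Unadjusted p-values under 0.05 numbered 0 among members and 89 among all genes.

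Other genes of at least 5 CPM also overlapped between groups at day 5. Grid1 was at 40.2, 40.4 and 31.9 CPM in WT against 30.7, 36.2 and 37.2 CPM in cKO. Of the kainate genes, Grik1 was at 7.15, 5.08 and 4.68 CPM in WT against 5.02, 5.95 and 5.17 CPM in cKO, Grik2 at 24.5, 11.03 and 9.12 CPM in WT against 8.63, 24 and 11.8 CPM in cKO and Grik4 at 15.6, 22.05 and 16.6 CPM in WT against 19.8, 12.9 and 15.6 CPM in cKO. Grik5, among the most abundant members by CPM, was at 103, 151 and 142 CPM in WT against 152, 79.3 and 111 CPM in cKO. WT replicate 1 and cKO replicate 2, high in AMPA genes, were lowest in Grik5. Grin1 was at 28.2, 45.4 and 34.3 CPM in WT against 43.3, 17.1 and 25.5 CPM in cKO, lowest in cKO replicate 2. Grin3a was at 71.99, 58.4 and 55.8 CPM in WT against 46.5, 102 and 69.99 CPM in cKO, Grm3 at 29.9, 17.7 and 17.6 CPM in WT against 16.05, 38.9 and 18.1 CPM in cKO and Gabra4 at 10.1, 5.54 and 4.82 CPM in WT against 5.97, 14.8 and 6.25 CPM in cKO, all 3 highest in cKO replicate 2.

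Whether the change differed between days was tested directly, by subtracting the day 5 change from the day 9 change, and 6 of 32 members were called, 5 upward and 1 downward, beside 2.57% and 5.14% of all 15323 genes tested (7.71% in all). The 5 were Gria1 at 1.62 ± 0.30 (log2; edgeR, adjusted p = 0.00713), Grik3 at 1.59 ± 0.30 (0.00713), Gabbr1 at 1.23 ± 0.26 (0.013), Gabrb1 at 2.22 ± 0.55 (0.032) and Gabbr2 at 1.37 ± 0.35 (0.0377), and the gene called downward was Grin2c at -1.83 ± 0.44 (0.0262). All 6 had also been called at day 9, from the same libraries. Gria2 had the largest positive difference, 2.70 ± 1.14, but did not pass (adjusted p = 0.223); without cKO replicate 2 of day 5 it was 3.98 (adjusted p = 0.0286), and without WT replicate 1 of day 5 it was 1.41. Without both it was again 2.70 (adjusted p = 0.0155), and without cKO replicates 1 and 3 of day 9 it was 1.68. Grm3, at -1.67 ± 0.50 (adjusted p = 0.0768), did not pass either, but did without WT replicate 1 (-1.99, adjusted p = 0.0355) or cKO replicate 1 (-1.90, adjusted p = 0.0415) of day 5, without the 2 day 5 libraries that stood apart (-1.47, adjusted p = 0.00352), under DESeq2 (-1.72, adjusted p = 0.0084) and in counts without structural RNA (-1.71, adjusted p = 0.0478).

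Of the 6 calls, those of Gria1 and Grik3 held when any 1 of the 12 libraries was left out. Gabbr1 lost its call without WT replicate 2 (edgeR, adjusted p = 0.0511), WT replicate 3 (0.0622), cKO replicate 1 (0.0744) or cKO replicate 3 (0.073) of day 9. Gabbr2 lost it without any 1 of 9 libraries, that is all but WT replicate 3 and cKO replicate 2 of day 5 and WT replicate 3 of day 9 (adjusted p from 0.0616 to 0.118), and Gabrb1 without any 1 of 10, all but WT replicate 3 and cKO replicate 2 of day 5 (0.0582 to 0.081). Grin2c lost it without any 1 of 7 libraries, which were WT replicate 2 and cKO replicates 1 and 3 of day 5, and WT replicates 1 and 2 and cKO replicates 1 and 2 of day 9 (0.0506 to 0.095). Grin2c also lost its call under limma-voom (-1.91, adjusted p = 0.0517), and Gabbr2 without the low-count filter (1.33, edgeR, adjusted p = 0.0664). The differences themselves stayed on the same side of 0 throughout. With the 2 day 5 libraries that stood apart left out, 10 members were called; without cKO replicates 1 and 3 of day 9, 1 was (Gria1, adjusted p = 0.0469), and Grik3 was then at an adjusted p of 0.0733.

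The partners of these receptors were followed in 5 lists, whose counts stand beside the 21.0% of all genes called higher and 22.6% called lower at day 9. AMPA and kainate auxiliary subunits, which steer trafficking and gating, rose in 1 and fell in 7 of 12 tested cases at day 9, with a median log2 fold change of -0.53. Cacng8, the gene of TARP gamma-8, was at 19.2, 17.3 and 18.1 CPM in WT against 3.27, 2.72 and 4.08 CPM in cKO (-2.48 ± 0.18; edgeR, adjusted p = 4.38e-05). Gsg1l, which encodes another AMPA receptor partner, was at 26.98, 20.5 and 29.95 CPM in WT against 6.86, 8.68 and 9.85 CPM in cKO (-1.60 ± 0.19, adjusted p = 0.000484), and Cacng5, of the TARP family, at 9.32, 11.1 and 10.7 CPM in WT against 4.05, 5.08 and 5.21 CPM in cKO (-1.10 ± 0.17, adjusted p = 0.00164). The 1 that rose was Shisa9, whose product speeds AMPA receptor desensitization, at 11.9, 6.63 and 15.1 CPM in WT against 42.7, 55.6 and 51.6 CPM in cKO (2.16 ± 0.30, adjusted p = 0.0022). None of these 4 overlapped between groups.

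Scaffold and trafficking genes rose in 7 and fell in 2 of 18 tested cases (median 0.35). Dlg4, the gene of PSD-95, fell by 0.56 on the log2 scale (edgeR, adjusted p = 0.00266), while Shank3, a postsynaptic scaffold gene, rose by 0.64 ± 0.12 (adjusted p = 0.00381). Dlg1, which encodes SAP97, rose by 0.94 ± 0.18 (adjusted p = 0.00519) and the adhesion gene Nlgn1 by 1.87 ± 0.38 (adjusted p = 0.0112). Glutamate transport and metabolism genes rose in 5 and fell in 1 of 9 (median 0.81). Slc1a2, the glial transporter GLT-1 that is also among the astrocyte markers above, was at 137, 87.1 and 63.8 CPM in WT against 470.2, 322 and 436 CPM in cKO (2.09 ± 0.31, adjusted p = 0.00321). The neuronal transporter gene Slc1a1 rose by 2.05 ± 0.16 (adjusted p = 6.81e-05), Glud1, glutamate dehydrogenase, by 0.98 ± 0.17 (adjusted p = 0.00341), and Slc1a4, a neutral amino acid carrier gene, changed by -1.38 ± 0.0922 (adjusted p = 2.82e-05).

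Genes of GABA synthesis, uptake and breakdown rose in 3 and fell in 2 of 6 tested cases (median 0.15). Abat, the enzyme that breaks GABA down, rose by 1.10 ± 0.16 (edgeR, adjusted p = 0.00126) and Gad1, which makes it, by 0.63 ± 0.14 (adjusted p = 0.00924). Of those that fell, the transporter gene Slc6a13 stood at 0.48, 0.394 and 0.552 CPM in WT but at 0 in all cKO libraries, where 3 counts are worth up to 0.468 CPM, so no fold is given. The chloride transporters NKCC1 (Slc12a2) and KCC2 (Slc12a5), which set the direction of GABA-A current, gave 0 calls of 2. In each of the 5 lists 0 genes were called at day 5.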

How the data were processed

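RNA from 12 libraries of sorted cells was analysed. The authors deposited expected counts (estimated per gene, not whole) and, separately, TPM values, in 1 table of each per day; the submitters' processing notes name RSEM, Bowtie2 and mm10. No annotation or strand setting is given in the sources used here. Day 5 identifiers were paired with symbols (42425, 97.96%) and day 9 features are symbols (41839, 97.75%, known to the reference). The tables held 0 columns of other samples. Depth was 13315273 to 32127629 counts per library; the floor of 3 counts covers counting error only.

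Expected counts were rounded. The test was edgeR 4.0.16 (R 4.3.3), with filterByExpr (minimum count 10, total 15), TMM, robust quasi-likelihood fit and F test of cKO against WT within each day, Benjamini-Hochberg over all genes tested, threshold 0.05, with no covariate. Standard errors were derived from the fold change and its F statistic. The day difference used all 12 libraries and symbols found once in both tables. The scripts were tested on simulated data. All simulated libraries shared the same mean profile apart from the changes set in, so the unequal structural RNA of the real libraries was not covered. Levels in every library are printed for members past the threshold and for others with a group mean of at least 5 CPM; day 5 folds for the 3 smallest p; up to 4 called genes per list. Members, lists and rules were chosen with earlier results of these data known.

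The deposited TPM values served for shares within a class and, after TMM scaling over tested genes (chosen after seeing the data), for class levels. Same-numbered WT and cKO libraries were checked for pairing through the correlation of their deviations and did not pair. A few genes of the family and the lists are counted but not reported by name or drawn. No 2 libraries of a group agreed within sampling noise. Alternatives were DESeq2 1.42.0, limma 3.58.1 (voom, or log2(TPM + 0.1) and log2(TPM + 1)), RLE and upper-quartile scaling, no low-count filter, counts or TPM without structural RNA, a replicate block, and left-out libraries. Motifs were searched in RefSeq promoter windows; proteins were not used here.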

Additional observations from a re-analysis of the deposited data

Results flagged for a closer look

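Receptor genes whose change differed between day 5 and day 9 by a test of the difference itself (edgeR, 12 libraries, adjusted p under 0.05) were Gabbr1 (1.23), Gabbr2 (1.37), Gabrb1 (2.22), Gria1 (1.62), Grik3 (1.59) and Grin2c (-1.83), as log2 day 9 change minus day 5 change. Their errors and adjusted p-values stand with the report, as do the libraries on which the calls of Gabbr1, Gabbr2, Gabrb1 and Grin2c rest. At day 9 all 3 cKO libraries lay on the same side of all 3 WT libraries in each of the 6. At day 5 the groups overlapped in each. Samples of the 2 days stand in tables of their own, so a day difference also compares tables.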

How the results depend on the processing

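Of the 432 alternative values of named members at day 9, 343 kept direction and side of the threshold, 52 kept the direction only and lost the call, 16 gained one and 21 reversed; of 315 alternative day differences 264 kept both, 42 lost and 9 gained a call, and all 54 at day 5 stayed uncalled. All 15 calls of day 9 remained under DESeq2, RLE and upper-quartile scaling, voom, TMM-scaled TPM, counts without structural RNA and the replicate block, and 14 without the low-count filter (without Grid1, 0.44, adjusted p = 0.0714). Without cKO replicates 1 and 3 of day 9, 10 remained.

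Unscaled TPM changed most. Members called at day 9 numbered 1 on log2(TPM + 0.1), 1 on log2(TPM + 1) and 4 on TPM without structural RNA; genes called were 623, 510 and 1454 against 6378. The median of all genes moved by -1.02, -0.79 and -0.85 on these scales (0.35 under DESeq2, 0.101 without the low-count filter and 0.012 on TMM-scaled TPM). The cause was not tested. On log2(TPM + 0.1) the reversed values were -0.13 for Gabbr1, -0.49 for Gabrg1, -0.015 for Gria3, -0.49 for Grid1, -0.96 for Grik4, -0.82 for Grik5 and -0.98 for Grin3a. On log2(TPM + 1) they were -0.12 for Gabbr1, -0.27 for Gabrg1, -0.41 for Grid1, -0.74 for Grik4, -0.79 for Grik5 and -0.90 for Grin3a. On TPM without structural RNA they were -0.32 for Gabrg1, -0.30 for Grid1, -0.78 for Grik4, -0.62 for Grik5 and -0.79 for Grin3a. Grin3a also turned without the low-count filter (-0.04) and, with Grik4 (-0.043), without cKO replicates 1 and 3 (-0.063); in these the cause was not tested.

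Genes called at day 5 (1, edgeR) numbered 8 with DESeq2, 2 with voom, 3 on each of the 4 TPM scales, 0 without the low-count filter, 0 with the replicate block, 0 to 0 without any 1 library and 19 without WT replicate 1 and cKO replicate 2. Leaving out 1 library gave 4063 to 7507 genes and 12 to 15 members at day 9, and 756 to 2410 genes and 2 to 7 members in the day difference, against 1181 and 6. Without the day 5 pair the day difference held 2535 genes and 10 members. Without cKO replicates 1 and 3 of day 9 it held 452 genes and 1 member, and day 9 itself 3344 genes and 11 members. The replicate numbers do not pair the samples (correlations of same-numbered deviations -0.721, -0.498 and 0.534 at day 5, -0.001, -0.2 and -0.063 at day 9). With the replicate block, day 9 held 5514 genes and 17 members (Gria3 now passed, 1.115, edgeR, adjusted p = 0.048). The day difference then held 322 genes and 1 member, Grik3. The other 5 calls lay at an adjusted p of 0.0627 for Gria1 to 0.229 for Gabbr2 (edgeR). By expected counts in place of TPM, 44 of 92 subunit shares moved by over 1 SD, since counts grow with gene length. Depth limits the low genes most in cKO replicates 1 and 3 of day 9.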
